A study of Homo sapiens with 28 samples.

Results

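DDX17 and HNRNPL knockdown were set directly against each other in 6 of the 28 arrays of the series, 3 per knockdown, chosen by their labels. The cells were HEK293, a human embryonic kidney line, and their RNA was hybridised to Human Gene ST1.0 arrays of Affymetrix. Each culture received 1 lentiviral vector whose U6 promoter drives 1 short hairpin RNA (shRNA), and it was selected with puromycin at 2 µg/ml and harvested after 6 days. The 3 arrays of a knockdown carried 3 different hairpins against the same gene, which the study had ranked by qPCR among those it tried, so that the hairpins of a group share a target but not a sequence. All 6 cultures therefore carried a vector, a hairpin and puromycin selection, and no lacZ control array entered the comparison. The CLP1 and DDX5 knockdowns of the same array series, also 3 hairpins each, were used to place the 2 groups. Their arrays also entered the variance estimate behind every test, as did the PABPC1, PARP1, PRKDC and SUPT16H knockdowns of the second series. That estimate used 24 knockdown arrays. Levels are log2 probeset intensities, 1 probeset per gene, and a difference is always the DDX17 mean minus the HNRNPL mean on that scale.

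DDX17 (p72) is a DEAD box RNA helicase, an enzyme that opens RNA duplexes and displaces proteins from RNA. Together with its close relative DDX5 it takes part in splicing, in microRNA processing as a cofactor of Drosha, and in transcription. HNRNPL is a nuclear RNA-binding protein that prefers CA-rich RNA and acts as a splicing enhancer or silencer depending on where it binds. The study included both among candidate helpers of the transcription regulator Aire, which HEK293 cells do not normally use, and DDX17 also as an accessory protein of the complex that cleaves and polyadenylates transcripts. HNRNPL is not part of that complex, but the study cites a role for it in the 3′ end processing of some human transcripts.

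Of 10 genes listed as markers of HEK293 cells, VIM, KRT8, KRT18, CDH2 and NEFL lay between 8.46 and 10.80 in the 6 arrays, SALL1 and ENO2 between 7.44 and 8.43, and NEFM, PAX2 and LHX1 lower, between 5.43 and 6.47. The 10 averaged 8.04 to 8.17 in DDX17 arrays and 8.17 to 8.31 in HNRNPL arrays. Their median difference was -0.20 (-0.13 without HNRNPL hairpin 3). Of them 3 were without overlap on the lower side (30.0%, against 8.61% of all genes) and 1 on the higher side (10.0%, against 9.09%). When HNRNPL hairpin 3 was left out, 5 were without overlap on the lower side (against 14.9% of all genes) and 1 on the higher side (against 15.9%). None passed the test described below (0 of 10), which called 0.0597% of all genes. By contrast, the blood marker PTPRC lay between 3.59 and 3.81 and the liver marker ALB between 4.38 and 4.56. Over 8 blood markers the mean level was 5.18 to 5.25 in DDX17 arrays and 5.05 to 5.17 in HNRNPL arrays, and 0 of the 33 markers of blood, fibroblasts, keratinocytes and hepatocytes passed, although LUM of the fibroblast list did without DDX5 hairpin 3 (0.49; limma adjusted p = 0.0475). Median probeset intensities were 64.3 to 66.4 in the DDX17 arrays and 65.8 to 70.6 in the HNRNPL arrays. The number of arrays limits the precision. With 3 against 3 arrays an exact two-sided permutation test cannot go below p = 0.1, so the tests come from a linear model over all genes. Their p-values measure the spread between the arrays of a knockdown, pooled over 8 knockdowns. Each hairpin had 1 array, so this spread holds hairpin, culture and array together.

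Of the 6 arrays, HNRNPL hairpin 3 stood apart from the others. The spread between 2 arrays was taken as the SD, over 18417 genes, of their log2 difference. It was 0.24 to 0.27 between the 3 DDX17 arrays. Among the HNRNPL arrays it was 0.17 between hairpins 1 and 2, but 0.39 and 0.38 between hairpin 3 and these. The 9 pairs of a DDX17 and an HNRNPL array ranged from 0.22 to 0.46, and the 3 highest, 0.38, 0.43 and 0.46, all involved HNRNPL hairpin 3. Without that array the DDX17 and HNRNPL groups lay 0.22 to 0.31 apart, a range that overlapped the spread between DDX17 hairpins. DDX5 hairpin 3 stood further off, at 0.54 and 0.76 from the other DDX5 arrays, and the array nearest to it was HNRNPL hairpin 3, at 0.36. HNRNPL hairpin 3 and DDX5 hairpin 3 bear on several calls below.

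**Figure D1:**
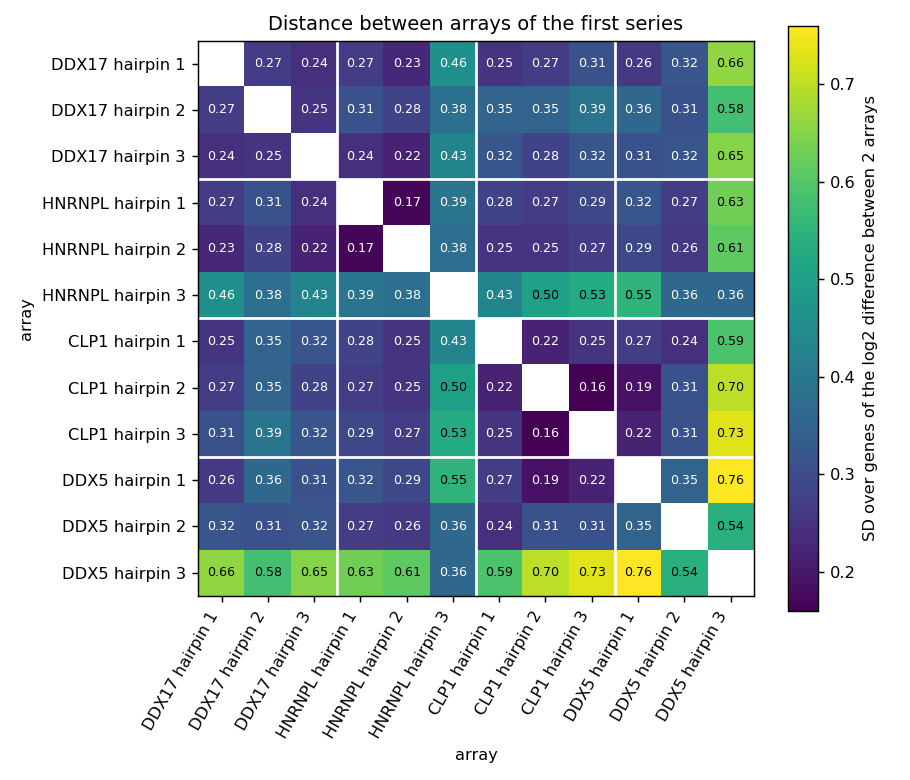
Spread between each pair of the 12 arrays of DDX17, HNRNPL, CLP1 and DDX5 knockdown, as the SD over 18417 genes of the difference in log2 intensity (colour scale and printed values). Pairs of a DDX17 and an HNRNPL array, at 0.22 to 0.31 without HNRNPL hairpin 3, look like pairs within DDX17 knockdown, at 0.24 to 0.27, and HNRNPL hairpin 3 and DDX5 hairpin 3 form the light rows and columns.

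The DDX17 transcript was lower in DDX17 knockdown, and the HNRNPL transcript did not separate the groups. DDX17 read 9.40, 9.59 and 9.75 in the DDX17 arrays, against 10.67, 10.74 and 10.37 in the HNRNPL arrays. The 2 groups did not overlap, and all 6 CLP1 and DDX5 arrays, at 10.24 to 11.01, lay above the DDX17 arrays too. The difference was -1.01 ± 0.18 (SE, n = 3 each; limma with Benjamini-Hochberg (BH) adjustment, adjusted p = 0.0185), with a 95% interval of -1.38 to -0.65, or a 2.02-fold lower intensity. It was -1.13 without HNRNPL hairpin 3 (adjusted p = 0.0324), but no longer passed when any 1 of the other 5 arrays was left out (adjusted p up to 0.141).

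HNRNPL read 9.07, 9.51 and 9.57 in the DDX17 arrays, against 8.78, 9.11 and 9.44 in the HNRNPL arrays. HNRNPL hairpin 3, at 9.44, lay inside the range of the DDX17 arrays, and DDX17 hairpin 1, at 9.07, lay below 2 of the HNRNPL arrays. The difference was 0.28 ± 0.22 (SE, n = 3 each; limma unadjusted p = 0.212, adjusted p = 0.805), with a 95% interval of -0.17 to 0.72. It was wider, 0.44 ± 0.23, without HNRNPL hairpin 3 (limma adjusted p = 0.992). The adjusted p depends on all genes tested. In that fit 963 genes had an unadjusted p under 0.05, against 1450 with no array left out. Against the mean of CLP1 and DDX5 knockdown the HNRNPL transcript stood at -0.52 ± 0.19 in HNRNPL knockdown (limma adjusted p = 0.311) and at -0.24 ± 0.19 in DDX17 knockdown (adjusted p = 0.707). After adjustment over all genes, no test on these arrays thus called the HNRNPL transcript lower in the HNRNPL group, although its mean lay lower there. Such adjusted values are no single-gene check of the target, and a miss of their threshold does not show that the transcript was not lowered. The study had kept hairpins for reducing their target mRNA in qPCR, a measurement that was not analysed here, and neither was protein.

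**Figure D2:**
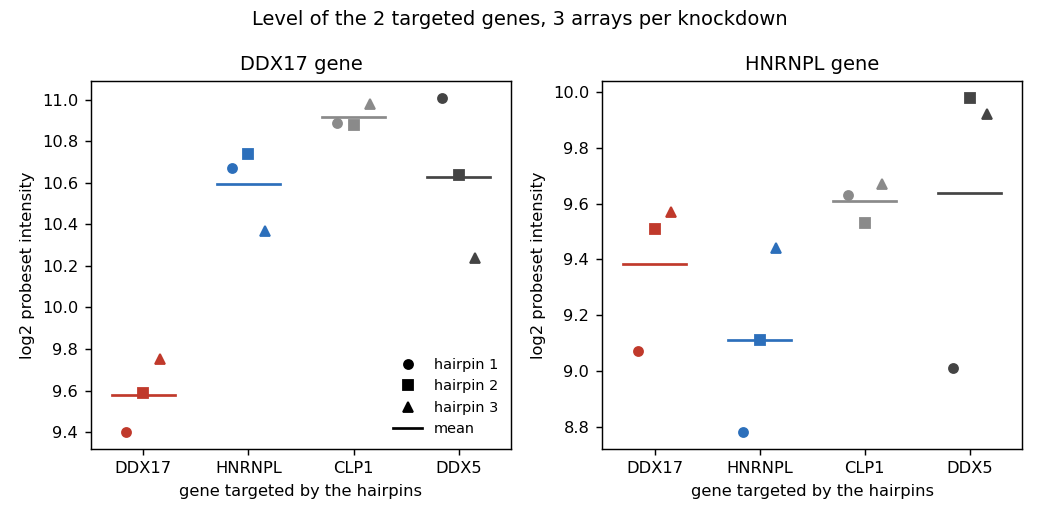
Log2 intensity of the DDX17 and the HNRNPL gene in 12 arrays, grouped by the gene that the hairpins target (symbols, hairpins 1 to 3; lines, means). The 3 DDX17 arrays lie below the other 9 in the DDX17 panel, whereas in the HNRNPL panel the DDX17 and HNRNPL groups overlap.

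The paralogs and partners of the 2 targets did not pass the test. DDX5 itself read 10.82, 10.60 and 10.74 in DDX17 arrays and 10.59, 10.69 and 10.21 in HNRNPL arrays (difference 0.22 ± 0.20; limma adjusted p = 0.844). HNRNPLL, the paralog of HNRNPL, read 7.82, 7.87 and 7.71 in DDX17 arrays and 7.87, 7.76 and 7.29 in HNRNPL arrays (0.16 ± 0.19; adjusted p = 0.897). CLP1, a kinase of the cleavage complex, read 6.12, 6.14 and 6.07 against 5.96, 5.87 and 6.01, a small gap without overlap that did not pass (adjusted p = 0.816). A miss of the threshold does not show that these levels are equal.

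Of 18417 genes, 11 differed between the knockdowns at an adjusted p under 0.05 (0.0597%), 8 of them higher (0.0434%) and 3 lower (0.0163%) in DDX17 knockdown. The arrays of the 2 groups did not overlap for any of the 11. Over all genes, non-overlap of 3 against 3 arrays was common, with 1675 genes higher (9.09%) and 1585 lower (8.61%) in DDX17 knockdown. At an unadjusted p under 0.05 there were 1450 genes (7.87%). The median difference over all genes was 0.02, with an SD of 0.22, and the extremes were 1.66 and -1.15.

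The number of calls followed the arrays that enter the variance estimate. The model used all 24 knockdown arrays with 3 hairpins per gene. With the 12 arrays of the first series alone, limma called 0 genes (976 at an unadjusted p under 0.05), and with the 6 arrays alone 3, ZNF117, ERV3-1 and ZNF76. Leaving out HNRNPL hairpin 3 left 3 calls, ZNF117, ZNF76 and DDX17. Leaving out DDX5 hairpin 3, which belongs to neither group and enters only through the variance, gave 34 calls, and all 11 were among them. With both arrays left out there were 7 calls, and ZNF117, ERV3-1, IFITM10, ZNF76 and DDX17 were among them.

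**Figure D3:**
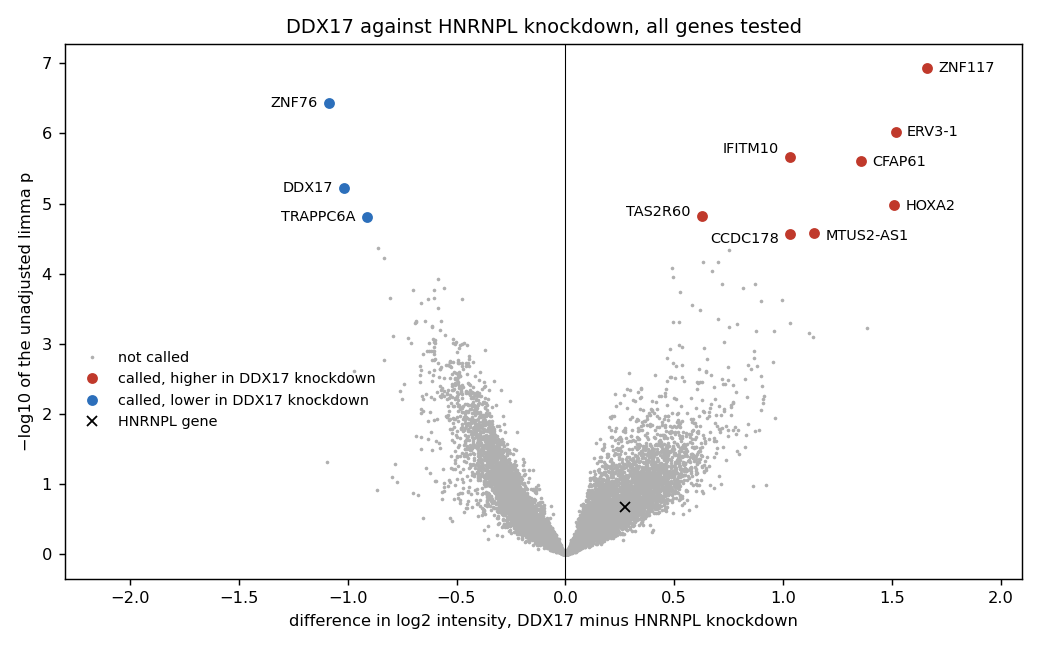
Difference in log2 intensity (x axis, DDX17 minus HNRNPL knockdown) against −log10 of the unadjusted limma p (y axis) for 18417 genes. The 8 called genes higher in DDX17 knockdown lie to the right, led by ZNF117 at 1.66, the 3 lower ones to the left, and the HNRNPL gene (cross, 0.28) sits among the genes not called.

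To see which of the 2 knockdowns set each difference apart, both were also compared with the mean of the CLP1 and DDX5 knockdowns. DDX17 knockdown differed from that mean in 261 genes (1.42%), 119 higher and 142 lower, and HNRNPL knockdown in 78 genes (0.424%), 42 higher and 36 lower. Both comparisons share the same CLP1 and DDX5 arrays, so they are given side by side and not as separate evidence. The balance of directions moved with the scaling. After centring each array on its median, 190 of 252 calls were higher in DDX17 knockdown, and after quantile normalization over 24 arrays 104 of 180 were. For HNRNPL knockdown 52 of 71 were higher after quantile normalization. It moved with single arrays too. Without DDX5 hairpin 3 the DDX17 comparison held 652 genes, 178 of them higher, and the HNRNPL comparison 791, 191 of them higher. Without HNRNPL hairpin 3, 42 of the 48 calls of HNRNPL knockdown were higher.

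The widest differences were those of ZNF117 and ERV3-1, which neighbour each other on chromosome 7. ERV3-1 is the envelope gene of an endogenous retrovirus, and ZNF117 is a zinc finger gene that can be transcribed from the same provirus. ZNF117 read 7.45, 7.22 and 7.73 in DDX17 arrays, against 5.92, 6.10 and 5.39 in HNRNPL arrays. No arrays overlapped, and the gap between the groups was wider than the range within either. The difference was 1.66 ± 0.22, or 3.17-fold (SE, n = 3 each; limma adjusted p = 0.00217). It was 1.45 without HNRNPL hairpin 3 (limma adjusted p = 0.0324).

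ERV3-1 read 7.33, 7.29 and 7.77 in DDX17 arrays, against 6.02, 6.26 and 5.55 in HNRNPL arrays, in the same order of arrays within HNRNPL as ZNF117. The difference was 1.52 ± 0.23 (limma adjusted p = 0.00588) and 1.32 without HNRNPL hairpin 3 (adjusted p = 0.084). Each gene has 1 probeset, and the deposited values do not show whether both read 1 shared transcript.

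It was the HNRNPL arrays that stood off for this pair. ZNF117 lay at -1.11 in HNRNPL knockdown from the mean of CLP1 and DDX5 (limma adjusted p = 0.00639), and at 0.55 in DDX17 knockdown (adjusted p = 0.183). For ERV3-1 these values were -1.05 (limma adjusted p = 0.0135) in HNRNPL knockdown and 0.47 (adjusted p = 0.309) in DDX17 knockdown. DDX5 hairpin 3 was the lowest of the CLP1 and DDX5 arrays for ZNF117, at 5.95, and without it the other 5 lay between 6.94 and 7.32, above all 3 HNRNPL arrays. The 8 measured genes nearest to the pair on chromosome 7, a set chosen after the values were seen, held 0 calls and had a median difference of 0.29, which was 0.13 without HNRNPL hairpin 3. Of its zinc finger members, ZNF138 read 8.44, 8.60 and 8.84 in DDX17 arrays and 8.52, 8.37 and 7.67 in HNRNPL arrays (limma adjusted p = 0.695).

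The other 6 genes that were higher in DDX17 knockdown included a developmental regulator, a ciliary gene and an antisense RNA. HOXA2, a homeobox transcription factor that patterns the hindbrain and the second pharyngeal arch, read 8.19, 8.58 and 8.70 in DDX17 arrays, against 7.26, 7.23 and 6.44 in HNRNPL arrays. All 3 DDX17 arrays lay above the HNRNPL arrays and above the CLP1 and DDX5 arrays, at 7.14 to 7.83. The difference was 1.51 ± 0.27, or 2.85-fold (SE, n = 3 each; limma adjusted p = 0.0275). Without HNRNPL hairpin 3, the lowest array, it was 1.25 (adjusted p = 0.274).

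CFAP61, a component of the radial spokes of cilia and of the sperm flagellum, read 6.49, 6.86 and 6.99 in DDX17 arrays, against 5.65, 5.68 and 4.92 in HNRNPL arrays. The CLP1 and DDX5 arrays, at 4.73 to 5.72, covered the same low range as the HNRNPL arrays. The difference was 1.36 ± 0.22 (limma adjusted p = 0.009). Relative to the mean of CLP1 and DDX5, DDX17 knockdown stood at 1.53 (adjusted p = 0.000126) and HNRNPL knockdown at 0.18 (adjusted p = 0.869). Without HNRNPL hairpin 3, again the lowest HNRNPL array, the direct difference was 1.11 (adjusted p = 0.138).

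IFITM10 belongs by sequence to the family of interferon-induced transmembrane proteins. It read 6.29, 6.13 and 6.60 in DDX17 arrays, against 5.39, 5.45 and 5.08 in HNRNPL arrays, and 5.02 to 5.71 in CLP1 and DDX5 arrays, so that DDX17 knockdown was the group that stood off. The difference was 1.03 ± 0.17 (limma adjusted p = 0.009), and 0.92 without HNRNPL hairpin 3 (adjusted p = 0.138). The antiviral members of the family, looked at after the values of IFITM10 were seen, did not follow: IFITM1 stood at -0.31, IFITM2 at -0.02 and IFITM3 at -0.01 (limma adjusted p = 0.879, 0.992 and 0.997).

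MTUS2-AS1 is a noncoding RNA antisense to MTUS2, a microtubule-associated gene. It read 5.94, 6.42 and 7.29 in DDX17 arrays, against 5.36, 5.43 and 5.42 in HNRNPL arrays. The HNRNPL arrays lay close together, whereas the DDX17 hairpins differed among themselves by more than the gap between the groups. The difference was 1.14 ± 0.22 (limma adjusted p = 0.0449; 1.15 and 0.214 without HNRNPL hairpin 3), and DDX17 knockdown stood 1.45 above the mean of CLP1 and DDX5 (adjusted p = 0.000179). MTUS2 itself read 4.89, 4.93 and 5.25 in DDX17 arrays and 4.74, 4.85 and 5.05 in HNRNPL arrays, with overlap (difference 0.15; adjusted p = 0.843).

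TAS2R60, a bitter taste receptor, and CCDC178, a coiled-coil gene, were called at low intensity, at the percentiles 9.91 and 24.7 of mean level over all genes. TAS2R60 read 4.88, 4.68 and 4.84 in DDX17 arrays, against 4.21, 4.25 and 4.07 in HNRNPL arrays, a difference of 0.63 ± 0.12 (limma adjusted p = 0.0318). CCDC178 read 5.51, 6.27 and 5.38 in DDX17 arrays, against 4.63, 4.89 and 4.55 in HNRNPL arrays, a difference of 1.03 ± 0.20 (adjusted p = 0.0449). For CCDC178 the CLP1 and DDX5 arrays, at 5.05 to 5.94, overlapped the DDX17 arrays and lay above all HNRNPL arrays. Its difference from that mean passed in neither DDX17 (0.48, adjusted p = 0.193) nor HNRNPL knockdown (-0.55, adjusted p = 0.205). Without HNRNPL hairpin 3 the difference was 0.57 for TAS2R60 (adjusted p = 0.274) and 0.96 for CCDC178 (adjusted p = 0.279). The loss of the call was not particular to that array, as TAS2R60 kept it in 0 and CCDC178 in 1 of the 6 fits that left out 1 of the arrays compared.

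Besides DDX17, 2 genes fell in DDX17 knockdown, ZNF76 and TRAPPC6A. ZNF76 encodes a zinc finger transcription factor related to ZNF143. It read 6.19, 6.10 and 6.29 in DDX17 arrays, against 7.35, 7.10 and 7.38 in HNRNPL arrays. The ranges within the groups were narrow, and the CLP1 and DDX5 arrays, at 6.81 to 7.35, also lay above every DDX17 array. The difference was -1.09 ± 0.16 (SE, n = 3 each; limma adjusted p = 0.00339). It was -1.03 without HNRNPL hairpin 3 (adjusted p = 0.0324), and the call held when any of the 6 arrays was left out.

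TRAPPC6A is a subunit of the TRAPP complex, which tethers transport vesicles between the endoplasmic reticulum and the Golgi. It read 6.89, 6.96 and 6.64 in DDX17 arrays, against 7.60, 7.61 and 8.02 in HNRNPL arrays and 7.28 to 7.84 in CLP1 and DDX5 arrays. The difference was -0.91 ± 0.17 (limma adjusted p = 0.0318), and it no longer passed when any 1 of the 6 arrays was left out (adjusted p up to 0.311; -0.77 and 0.279 without HNRNPL hairpin 3). Of the 14 TRAPP subunits measured, a set chosen after the values were seen, TRAPPC6A was the 1 that passed. Its paralog TRAPPC6B read 8.48, 8.62 and 8.44 in DDX17 arrays and 8.27, 8.15 and 7.81 in HNRNPL arrays, on the opposite side and not called (0.44, adjusted p = 0.672).

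Set beside the mean of CLP1 and DDX5, the called genes thus fell on different sides. CFAP61, MTUS2-AS1, IFITM10, HOXA2, TAS2R60, ZNF76, TRAPPC6A and DDX17 passed in DDX17 knockdown and not in HNRNPL knockdown, and ZNF117 and ERV3-1 in HNRNPL knockdown and not in DDX17 knockdown. For each of these 10 genes the direct difference is the test that the 2 knockdowns are not alike.

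**Figure D4:**
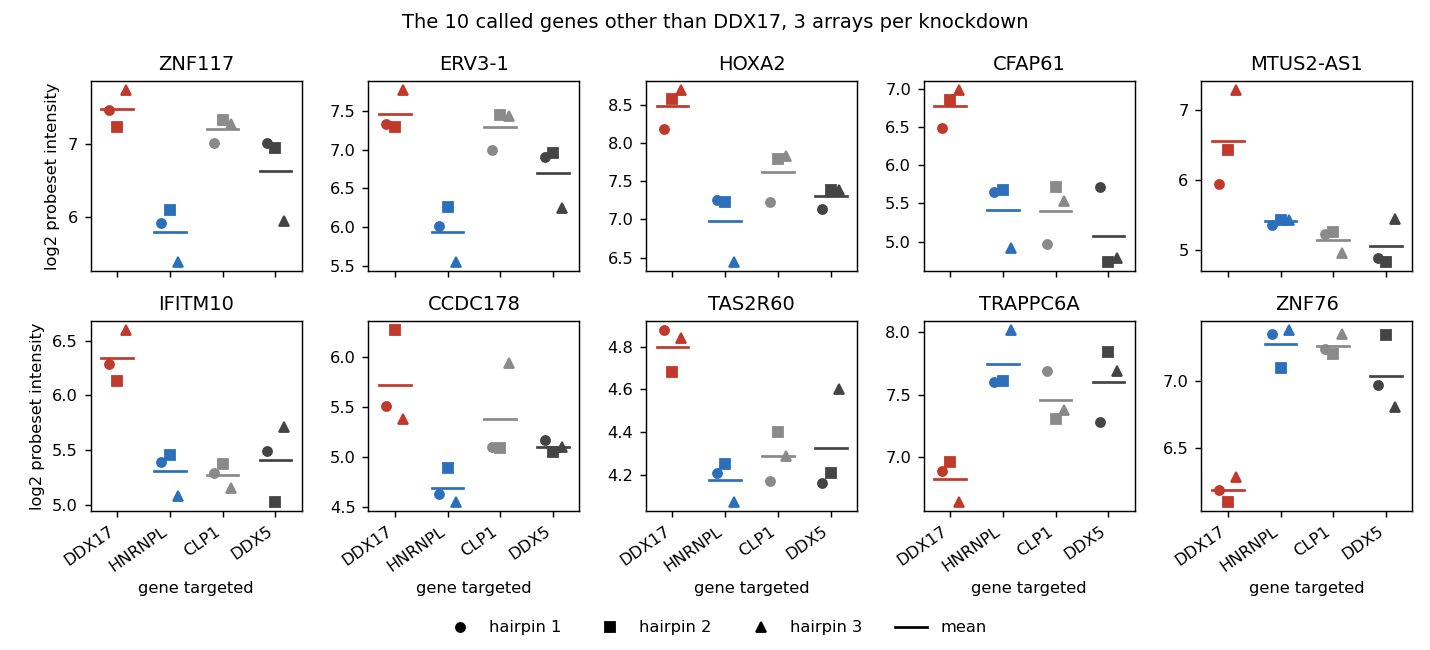
Log2 intensity of the 10 called genes other than DDX17 in the arrays of DDX17, HNRNPL, CLP1 and DDX5 knockdown (symbols, hairpins 1 to 3; lines, means; each panel has its own y axis). For ZNF117 and ERV3-1 the HNRNPL arrays lie low, at 5.39 to 6.26, whereas for CFAP61, IFITM10 and ZNF76 it is the DDX17 arrays that lie away from the other 9.

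A further 6 genes had a difference beyond 1 in size without passing, and are named because they are few. ST6GALNAC3, a sialyltransferase, read 8.49, 8.10 and 8.43 in DDX17 arrays, against 7.22, 7.52 and 6.12 in HNRNPL arrays (1.39 ± 0.35; limma adjusted p = 0.214). VN1R1 (1.14), KRTDAP (1.12) and FGF21 (1.03) had adjusted p-values of 0.254, 0.237 and 0.202. EYS read 4.05, 4.23 and 4.48 in DDX17 arrays, against 5.31, 4.49 and 6.41 in HNRNPL arrays, with HNRNPL hairpin 3 the highest array by far (-1.15; adjusted p = 0.378). SPDYE7P, at -1.10, showed the same array as its highest, 8.55 (adjusted p = 0.629).

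Groups of genes were described by how many members passed and by their median, beside 0.02 for all genes. Over all genes 0.0597% passed, so 0 or 1 call in lists of these sizes does not set a list apart. Shares of members without overlap are read against 9.09% of all genes on the higher side and 8.61% on the lower side, or, without HNRNPL hairpin 3, 15.9% and 14.9%. Among the RNA-processing groups close to both targets, the 1 gene called was DDX17, the knocked-down gene itself. Of 51 DEAD and DEAH box helicases, 1 passed, DDX17, and the median was 0.02. The next lowest was DDX54, a nucleolar helicase, at 7.44, 7.33 and 7.27 in DDX17 arrays and 7.82, 7.77 and 7.94 in HNRNPL arrays (-0.50 ± 0.16; limma adjusted p = 0.377). At the other end DDX20, a component of the SMN complex, read 8.00, 7.94 and 7.96 in DDX17 arrays and 7.55, 7.57 and 7.14 in HNRNPL arrays (0.54; adjusted p = 0.632). Helicases had arrays without overlap in 11 cases on the higher side (21.6% of the 51, against 9.09% of all genes) and in 6 on the lower side (11.8%, against 8.61%). Without HNRNPL hairpin 3 the shares were 21.6% (against 15.9% of all genes) and 19.6% (against 14.9%), and the median was -0.03.

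Of 29 hnRNP and PTB proteins, the family of HNRNPL, 0 passed at a median of 0.01, with values from -0.31 for HNRNPA1 to 0.32 for PTBP2 (limma adjusted p = 0.768 and 0.775). Of 48 SR proteins and core spliceosome components 0 passed as well, at a median of 0.09, with 10 without overlap on the higher side (20.8%, against 9.09% of all genes) and 3 on the lower side. Without HNRNPL hairpin 3 the share on the higher side was again 20.8%, but against 15.9% of all genes. The highest of the 48, PLRG1 of the spliceosome's NTC complex, read 9.75, 9.33 and 9.47 in DDX17 arrays, against 8.94, 8.86 and 8.24 in HNRNPL arrays, a gap without overlap (0.84; adjusted p = 0.488). Transcripts that HNRNPL is known to bind or splice, 12 of them measured, held 0 calls, and none had arrays without overlap. CD55 read 9.12, 9.15 and 9.12 in DDX17 arrays and 8.84, 9.30 and 8.58 in HNRNPL arrays, and VEGFA 9.43, 9.47 and 9.64 in DDX17 arrays and 9.72, 9.58 and 9.18 in HNRNPL arrays. Splicing itself cannot be read from values summed over a transcript.

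Among 19 genes of microRNA processing and silencing, in which DDX17 acts, DDX17 was again the 1 call. DGCR8, the partner of Drosha, read 7.62, 7.59 and 8.04 in DDX17 arrays and 7.96, 7.87 and 7.80 in HNRNPL arrays (-0.13; limma adjusted p = 0.880). AGO2, the slicing Argonaute, read 7.70, 7.57 and 8.20 in DDX17 arrays, against 8.35, 8.26 and 8.15 in HNRNPL arrays, overlapping through DDX17 hairpin 3 (-0.43; adjusted p = 0.537). The 173 microRNA precursor genes held 0 calls at a median of 0.01. The list averaged 4.68 to 4.75 in DDX17 arrays and 4.61 to 4.78 in HNRNPL arrays, far below the means of all genes, 6.54 to 6.58 in DDX17 arrays and 6.49 to 6.56 in HNRNPL arrays.

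The 24 factors of 3′ end processing held 0 calls, with a median of 0.15 that was 0.03 without HNRNPL hairpin 3. XRN2, the nuclease that ends transcription downstream of the cleavage site, read 8.86, 8.95 and 8.92 in DDX17 arrays, against 8.42, 8.74 and 7.99 in HNRNPL arrays (0.53; limma adjusted p = 0.654). CPSF1, the largest subunit of the cleavage and polyadenylation specificity factor, lay on the other side, at 7.61, 7.48 and 7.75 in DDX17 arrays and 8.18, 7.85 and 7.94 in HNRNPL arrays (-0.37; adjusted p = 0.457). Of 16 genes of nonsense-mediated decay and its targets 0 passed, and UPF1, its central helicase, read 7.16, 7.24 and 7.42 in DDX17 arrays, against 7.75, 7.57 and 7.70 in HNRNPL arrays (-0.40; adjusted p = 0.401). The human counterparts, matched by symbol, of genes that Aire raises in mouse thymus and that carry proximal poly(A) sites, a list taken from the study, numbered 543. None passed (0 of 543), and their median was 0.03. Of this list TMEM45A passed without DDX5 hairpin 3 (0.79; limma adjusted p = 0.0336), and ABCC2 without both DDX5 hairpin 3 and HNRNPL hairpin 3 (-0.70; adjusted p = 0.0359).

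In stress and metabolism groups again 0 genes passed with all 24 arrays, but some had more arrays without overlap than the background share. Of 46 ATF4 and unfolded protein response genes, 12 were without overlap on the higher side (26.1%, against 9.09% of all genes) and 2 on the lower side, at a median of 0.15. The median was 0.09 without HNRNPL hairpin 3, and the share on the higher side 28.3%, against 15.9% of all genes. FGF21, a stress-induced hormone and target of ATF4, read 7.05, 7.03 and 7.48 in DDX17 arrays, against 6.25, 6.37 and 5.84 in HNRNPL arrays (1.03 ± 0.26; limma adjusted p = 0.202). NUPR1, a stress-induced chromatin protein, read 9.26, 9.22 and 9.43 in DDX17 arrays, against 8.70, 8.77 and 8.38 in HNRNPL arrays (0.68; adjusted p = 0.368). ATF4 itself read 10.69, 10.64 and 10.67 in DDX17 arrays and 10.69, 10.66 and 10.57 in HNRNPL arrays, with no gap (0.03; adjusted p = 0.987).

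Glycolysis and hypoxia genes leaned the other way, with 7 of 33 without overlap on the lower side (21.2%, against 8.61% of all genes) and a median of -0.05. With HNRNPL hairpin 3 left out, the median was -0.13 and the share 30.3%, against 14.9% of all genes. PFKL, the liver form of phosphofructokinase, came closest to a call, at 6.75, 6.72 and 6.66 in DDX17 arrays and 7.58, 7.52 and 7.54 in HNRNPL arrays (-0.83 ± 0.17; limma adjusted p = 0.0781, and 0.0261 without DDX5 hairpin 3). The platelet form PFKP read 7.79, 7.65 and 8.23 in DDX17 arrays, against 8.53, 8.53 and 8.40 in HNRNPL arrays (-0.60; adjusted p = 0.255). EGLN3, an oxygen-sensing prolyl hydroxylase, read 5.99, 5.84 and 5.90 in DDX17 arrays, against 6.26, 6.30 and 6.67 in HNRNPL arrays (-0.50; adjusted p = 0.257). GAPDH stood at 0.19, with overlap (adjusted p = 0.923).

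Cholesterol and fatty acid genes lay on both sides at a median of 0.01, with 0 of 27 called. The sterol enzymes MSMO1 (0.70) and SC5D (0.61) lay on the higher side, and ACLY (-0.57) and FASN (-0.52), which make acetyl-CoA and palmitate, on the lower side (limma adjusted p = 0.569, 0.509, 0.377 and 0.522). MSMO1 read 7.12, 6.52 and 7.01 in DDX17 arrays and 6.24, 6.35 and 5.98 in HNRNPL arrays. ACLY read 8.81, 8.26 and 8.60 in DDX17 arrays and 9.21, 9.14 and 9.03 in HNRNPL arrays. Neither pair of ranges overlapped. Other sterol enzymes, DHCR7 (-0.32) and LSS (-0.35), lay on the lower side with ACLY (adjusted p = 0.667 and 0.569).

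The mitochondrial ribosome and the genes of G2 and M phase were among the groups with the highest medians. Of 73 mitochondrial ribosomal protein genes 0 passed, and 20 were without overlap on the higher side (27.4%, against 9.09% of all genes) and 3 on the lower side, at a median of 0.17. Leaving out HNRNPL hairpin 3 gave a median of 0.11 and a share of 28.8%, against 15.9% of all genes. MRPL21 read 9.47, 9.84 and 9.24 in DDX17 arrays, against 8.88, 8.98 and 8.94 in HNRNPL arrays (0.58; limma adjusted p = 0.541). Oxidative phosphorylation genes had the same median of 0.17 over 65 genes, of which 5 were without overlap on the higher side and 7 on the lower side, both near the shares of all genes (7.69% and 10.8%). Cytosolic ribosomal protein genes, at 0.14 over 67 genes, had 5 and 0. Without HNRNPL hairpin 3 the median was 0.11 for oxidative phosphorylation and 0.05 for cytosolic ribosomal protein genes.

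Of 40 genes of G2 and M phase 0 passed at a median of 0.21, which was 0.09 without HNRNPL hairpin 3. Of them 8 were without overlap on the higher side (20.0%, against 9.09% of all genes) and 1 on the lower side. Without HNRNPL hairpin 3 the share on the higher side was again 20.0%, but against 15.9% of all genes. The list averaged 8.64, 8.44 and 8.30 in DDX17 arrays and 8.42, 8.32 and 8.06 in HNRNPL arrays, overlapping. ANLN, the cytokinesis scaffold anillin, read 9.21, 8.83 and 8.83 in DDX17 arrays, against 8.56, 8.70 and 8.12 in HNRNPL arrays (0.50; limma adjusted p = 0.589). Both groups lay at or below the CLP1 and DDX5 arrays, which averaged 8.66 to 8.70 apart from DDX5 hairpin 3, at 8.01. S phase genes split, with CCNE2 and RFC1 (0.66 and 0.47) on the higher side and CDT1, POLD1 and LIG1 (-0.54, -0.53 and -0.51) on the lower side, 0 of 45 called. Their median was -0.08 without HNRNPL hairpin 3, against 0.05 with it. The share without overlap on the lower side was 33.3% without that array (14.9% of all genes) and 11.1% with it (8.61% of all genes). CDT1, which licenses replication origins, read 7.87, 7.92 and 8.16 in DDX17 arrays, against 8.49, 8.42 and 8.64 in HNRNPL arrays (adjusted p = 0.454).

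Signalling and heat shock groups held 0 calls and lay on both sides. Of 38 growth factor feedback and immediate early genes, 7 were without overlap on the lower side (18.4%, against 8.61% of all genes) and 1 on the higher side, at a median of -0.11. The median was -0.06 and the share 21.1% without HNRNPL hairpin 3, against 14.9% of all genes. EGR1, an immediate early transcription factor, read 7.31, 7.19 and 7.53 in DDX17 arrays, against 7.88, 7.83 and 7.79 in HNRNPL arrays (-0.49; limma adjusted p = 0.568). MYC read 7.86, 7.95 and 7.67 in DDX17 arrays, against 8.53, 8.24 and 7.96 in HNRNPL arrays (-0.42; adjusted p = 0.638). Of 35 TGFβ, matrix and CCN genes, 8 were without overlap on the lower side (22.9%, against 8.61% of all genes) and 0 on the higher side, at a median of -0.03, or 0.01 without HNRNPL hairpin 3. Without that array the shares were 31.4% on the lower side (14.9% of all genes) and 5.71% on the higher side (15.9% of all genes). TGFB1 read 6.70, 6.83 and 7.04 in DDX17 arrays, against 7.80, 7.71 and 7.55 in HNRNPL arrays (-0.83; adjusted p = 0.301). Heat shock chaperones leaned the other way, with 5 of 23 without overlap on the higher side (21.7%, against 9.09% of all genes) and 0 on the lower side, at a median of 0.15, or 0.04 without HNRNPL hairpin 3. CHORDC1, a cochaperone of HSP90, read 9.20, 9.22 and 9.06 in DDX17 arrays, against 8.61, 8.82 and 8.38 in HNRNPL arrays (0.56; adjusted p = 0.690). Of 37 interferon-stimulated genes, 6 were without overlap on the higher side (16.2%) and 0 on the lower side, at a median of 0.05. The RNA sensor IFIH1 read 5.60, 5.81 and 5.91 in DDX17 arrays, against 5.59, 5.58 and 5.21 in HNRNPL arrays (0.31; adjusted p = 0.656). Without HNRNPL hairpin 3 the shares on the higher side were 21.7% of heat shock and 24.3% of interferon-stimulated genes, against 15.9% of all genes. Of 27 p53 targets, 1 was without overlap on the higher side and 3 on the lower side, at a median of -0.01.

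Small nuclear and nucleolar RNAs were high in single arrays of different knockdowns and did not separate the 2 groups. No hairpin was repeated, so hairpin, culture and array cannot be told apart here. Box H/ACA and Cajal body RNAs, which guide pseudouridylation, averaged 8.15, 9.08 and 8.28 in DDX17 arrays, against 8.05, 8.37 and 9.06 in HNRNPL arrays. DDX17 hairpin 2 and HNRNPL hairpin 3 were thus high alike, and so was DDX5 hairpin 3, at 9.10. The median difference over 77 such RNAs was 0.01, and 0.31 without HNRNPL hairpin 3. Spliceosomal, vault, Y and 7SK RNAs showed the same order, at 7.38, 8.20 and 7.50 in DDX17 arrays and 7.39, 7.56 and 8.30 in HNRNPL arrays, and box C/D RNAs at 6.35, 6.98 and 6.58 in DDX17 arrays and 6.55, 6.60 and 7.06 in HNRNPL arrays. None of the 3 lists held a call (0 of 77, 27 and 115). Their part in the distance of HNRNPL hairpin 3 from the other arrays was not tested.

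Of the families of the called genes, zinc finger genes numbered 520, with 1 call in each direction (ZNF117 and ZNF76) and a median of 0.10, or 0.02 without HNRNPL hairpin 3. Of them 76 were without overlap on the higher side (14.6%, against 9.09% of all genes) and 30 on the lower side (5.77%, against 8.61%). Without HNRNPL hairpin 3 the shares were 18.5% and 15.0%, near the 15.9% and 14.9% of all genes. Among 27 HOX genes measured HOXA2 was the 1 call, and the list's median was -0.04. HOXB2 read 7.78, 7.94 and 7.73 in DDX17 arrays, against 7.63, 7.55 and 7.60 in HNRNPL arrays, a narrow gap (0.22; limma adjusted p = 0.666). CFAP61 was the 1 call of 46 cilia and flagella associated genes, and TAS2R60 the 1 call of 24 bitter taste receptors, 2 sets chosen after the values were seen, with medians of 0.00 and 0.08. The neighbour of TAS2R60 in its family by value, TAS2R41, read 4.82, 4.76 and 5.14 in DDX17 arrays and 4.54, 4.76 and 4.53 in HNRNPL arrays (0.29; adjusted p = 0.648). Each of these families was taken up here because it holds a called gene. Beside the 0.0597% of all genes that passed, such counts do not describe the families.

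**Figure D5:**
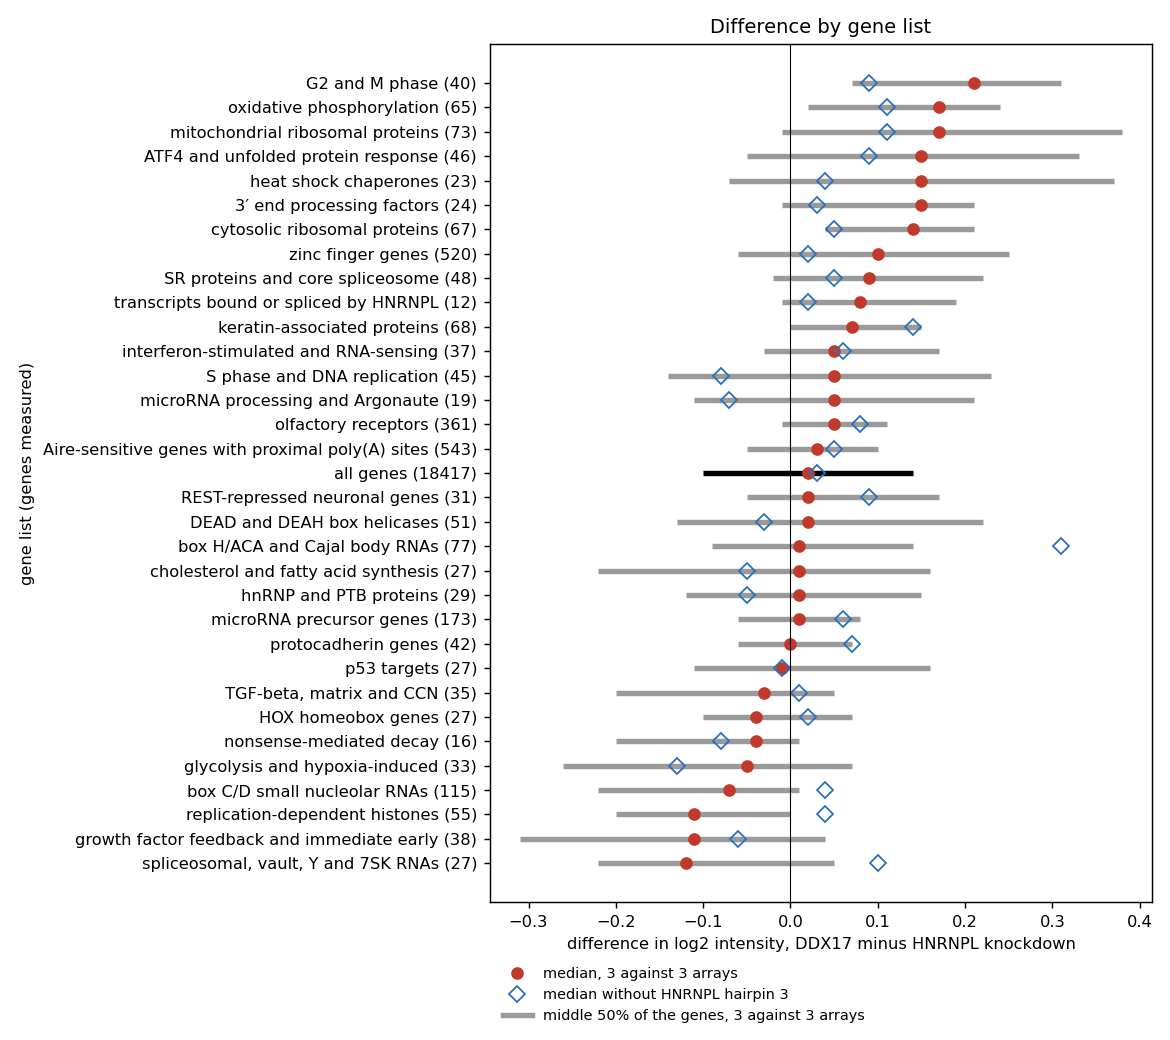
Difference in log2 intensity (x axis, DDX17 minus HNRNPL knockdown) by gene list (y axis, number of genes measured in brackets), as the median (filled circle), the middle 50% of its genes (bar) and the median without HNRNPL hairpin 3 (open diamond). The medians plotted, which leave out cell type markers and sets chosen after the values were seen, lie between -0.12 and 0.21, around the 0.02 of all genes (black bar), and that of box H/ACA RNAs moves to 0.31 without HNRNPL hairpin 3.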

How the data were processed

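Before they were deposited, the intensity values were made by the authors from array scans by robust multi-array averaging (RMA; background correction, quantile normalization and a probe-level model), each array series on its own. The intensities are on a linear scale, from 4.25 to 18486. Averaging over probes hides isoform changes, and quantile normalization hides a shift common to most genes. A probeset was used if its annotation gave 1 gene symbol, which held for 19460 of 33252. Several symbols (1754) or none (12038) led to exclusion. Where a gene had several probesets (769 genes), the brightest on average stood for it. This gave 18417 genes, 18389 of which had an Entrez ID in the reference. Values entered as log2, unfiltered and without pseudocount.

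The model was limma (3.58.1, R 4.3.3), with 1 coefficient per knocked-down gene over 24 knockdown arrays (16 residual and 7.9 prior degrees of freedom) and an intensity trend. lacZ arrays and the single CPSF6 array were left out. Benjamini-Hochberg adjustment ran over all genes, and genes were called under 0.05. With 200 of 18417 genes shifted by 1 log2 unit in data simulated for DDX17 against HNRNPL, 88% were recovered, with 15 false among 191 calls. Shifted by 2 units, 100% were recovered, with 9 false among 209. These rates describe the simulated data. Whether they hold for the real arrays, which differed in spread, was not tested.

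The text names both targets, the 12 widest rises and the 12 widest falls among called genes whose arrays did not overlap, and up to 3 called members per gene list. Other genes are named as extremes or central members of their list, chosen after their values were seen. Lists came from general knowledge, symbol patterns and, for Aire-sensitive genes, the study. The comparison, the members and the lists were chosen with earlier results of these data known. Alternatives changed the arrays in the fit, normalization, pseudocount, low-value filter, probesets, variance moderation, array weights and a hairpin block. Python 3.11.15, pandas 2.3.3, numpy 2.4.6, scipy 1.17.1 and matplotlib 3.10.9 were also used.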

Additional observations from a re-analysis of the deposited data

How the results depend on the processing

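For the 11 called genes and HNRNPL, no alternative that was run changed the direction. The 11 calls of DDX17 against HNRNPL became 3 with the 6 arrays alone, 0 with the 12 arrays of the first series, 17 after centring each array on its median (14 higher in DDX17 knockdown; the median of all genes then was 0.08) and 7 among genes with a mean log2 of at least 6. They became 555 with array weights, whose default estimate did not converge, and 357 with weights estimated gene by gene. Of the 6 arrays compared, leaving out 1 gave 2 to 16 calls (2 without DDX17 hairpin 3, 6 without DDX17 hairpin 2, 6 and 7 without HNRNPL hairpins 1 and 2, 3 without HNRNPL hairpin 3). Leaving out a CLP1 or DDX5 array gave 10 to 34 (21 without DDX5 hairpin 1, 34 without DDX5 hairpin 3), and leaving out HNRNPL hairpin 3 with DDX5 hairpin 3 gave 7. The last 2 sets and the gene by gene weights were chosen after seeing the data. DDX17 against the mean of CLP1 and DDX5, 261 calls, gave 71 with 12 arrays, 165 with the low-value filter, 3079 and 2224 with the 2 kinds of weights, 844 without both arrays, and 72 to 693 with 1 array left out. HNRNPL against that mean, 78 calls, gave 18, 23, 3483, 1738 and 118 in the same settings, and 13 to 791 with 1 array left out. The DDX17 level, at -1.01 with the 6 or the 12 arrays, did not pass there (limma adjusted p = 0.0999 and 0.54), and was -1.13 to -0.93 with 1 array left out. ZNF117 and ZNF76 kept their calls in 25 of 26 alternatives, ERV3-1 did in 23 of 26 and IFITM10 in 21 of 25, whereas CCDC178 did in 12 of 25 and MTUS2-AS1 in 11 of 25. The causes were not tested.

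With the hairpin number as a replicate block there were 11 calls, 10 of them the same. The numbers name different sequences, and same-numbered DDX17 and HNRNPL arrays did not deviate together (correlations across genes 0.175, -0.37 and -0.206), nor did every array correlate best with its own number.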

Other observations

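Without DDX5 hairpin 3, 23 further genes passed between DDX17 and HNRNPL knockdown, and some are named here after their values were seen. DCUN1D1, a factor of cullin neddylation, read between 8.5 and 8.78 in DDX17 arrays, against 7.37 to 7.93 in HNRNPL arrays (0.87 ± 0.16; limma adjusted p = 0.0181, and 0.118 with all 24 arrays). GAL3ST1, the sulfotransferase that makes sulfatide, read 6.46, 6.64 and 6.96 in DDX17 arrays, against 5.84, 5.91 and 6.05 in HNRNPL arrays (0.75; adjusted p = 0.0169), and also passed without HNRNPL hairpin 3 and DDX5 hairpin 3 (adjusted p = 0.0392). SEMA3C, a secreted guidance cue, read 7.53, 7.69 and 7.76 in DDX17 arrays, against 6.78, 6.83 and 6.66 in HNRNPL arrays (0.90; adjusted p = 0.0336). In both SEMA3C and DCUN1D1 the arrays of the 2 groups did not overlap.

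Of the further genes that fell in that setting, TCF25 had the widest difference, at 6.74, 6.86 and 7.01 in DDX17 arrays, against 7.81, 7.70 and 7.67 in HNRNPL arrays (-0.86 ± 0.16; limma adjusted p = 0.0261). PFKL passed as well (adjusted p = 0.0261), as did SCARB1, the receptor for high density lipoprotein, at 6.99, 6.80 and 6.79 in DDX17 arrays and 7.44, 7.50 and 7.39 in HNRNPL arrays (-0.59; adjusted p = 0.0336). DLL1, a Notch ligand, read 6.01, 6.11 and 6.17 in DDX17 arrays, against 6.65, 6.55 and 6.90 in HNRNPL arrays (-0.60; adjusted p = 0.0456). ABCC2, a transporter, passed with both arrays left out, and HNRNPL hairpin 3, at 5.58, lay inside the DDX17 range of 5.49 to 5.80.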
